A study of Mus musculus with 6 samples.

Results

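The replication-dependent histone genes were described here in cultures of mouse peritoneal cells, as the 46 of 17320 genes in the table that GENCODE vM21 names Hist1h, Hist2h, Hist3h or Hist4h. The table itself used these names for 7 of them and newer symbols for the other 39, for example H1f2 for Hist1h1c, so those were matched to the annotation by chromosome, start and strand. GENCODE vM21 holds 70 such genes, and the 24 without a row were not analysed here. The 46 members comprised 5 H1, 12 H2A, 14 H2B, 10 H3 and 5 H4 genes, 39 of them in the Hist1 cluster on chromosome 13, 5 in Hist2 on chromosome 3, 1 in Hist3 on chromosome 11 and 1 in Hist4 on chromosome 6. One H2A member, Hist1h2al, is annotated as a processed pseudogene, and the others as protein coding.

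Peritoneal cells (PC) of C57BL/6 background were cultured for 9 days in the presence of the mast cell growth factors SCF and IL-3, and RNA was sequenced from 3 wild-type libraries (replicates 1, 2 and 3) and 3 libraries labelled Mcemp1-/- (replicates 4, 5 and 6). The Mcemp1-/- allele is a short CRISPR deletion in exon 1 that shifts the reading frame, present in every cell of the animal. The comparison asks how loss of MCEMP1, a mast cell membrane protein, changes the cultured cells. Values are normalized counts on a scale close to CPM, which relates the reads of a gene to those of its library. The labels do not say whether libraries came from separate mice or cultures, so a p-value here reflects the spread among these 6 libraries, part of which may be technical.

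Replication-dependent histone genes encode the core histones H2A, H2B, H3 and H4, which form the nucleosome, and the linker histone H1, which binds DNA between nucleosomes. They are transcribed in S phase, when new DNA is packaged, and most of their mRNAs end at a conserved stem-loop in place of a poly(A) tail. SLBP binds the stem-loop and a complex with the U7 small RNA cuts the transcript just after it, whereas some histone genes also give longer, polyadenylated mRNAs, above all in differentiated cells. The libraries were made with an mRNA kit that captures poly(A) tails, which RNA ending at the stem-loop lacks, so the levels below are those of the captured RNA only.

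The stem-loop was the sequence feature shared by most members. It was found in the annotated transcripts of 34 of the 46 members, against 87 of 58797 coding transcripts of GENCODE vM21 (0.148%, histone transcripts included). Windows from 6 members are shown because they span all classes and the commonest forms. Capitals mark the stem-loop.
Hist1h1c: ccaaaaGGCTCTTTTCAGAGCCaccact
Hist1h2ap: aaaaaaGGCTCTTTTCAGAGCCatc
Hist1h2bg: cccaaaGGCTCTTTTCAGAGCCacccat
Hist1h3e: caaaacGGCTCTTTTAAGAGCCacctcc
Hist1h4i: cttaaaGGCCCTTTTTAGGGCCaccaca
Hist4h4: cacaaaGGCCCTTTTCAGGGCCcacaaa
In mm10 these windows lie in the 3′ UTR exons at chr13:23739506-23739533 (plus strand), chr13:21833026-21833050 (minus), chr13:23571837-23571864 (plus), chr13:23561897-23561924 (minus), chr13:22040960-22040987 (minus) and chr6:136803992-136804019 (minus). The form of Hist1h1c was the commonest, in 22 members, and the form of Hist1h3e was found in 5. All 5 H4 members had a GGCCC stem, the form of Hist4h4 in 4 of them and that of Hist1h4i in 1. No stem-loop was found in the annotated transcripts of 12 members, among them Hist2h2be and Hist1h2bc, which says only that the pattern is not in those annotated transcripts.

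Members differed in how far the annotation runs past that stem-loop. The annotated transcript of Hist1h2ap ended 3 bases past it and that of Hist1h2ao 31 bases past it, whereas that of Hist1h1c went on for 840 bases and that of Hist1h1d for 4884 bases. Of the 46 members, 22 were annotated for over 120 bases past the stop codon (150 to 4931) and 24 for at most 120 bases (0 to 114). A polyadenylation signal (AATAAA within the last 50 bases) was found in 10 of the 22 and in 0 of the 24, against 40.5% of coding transcripts. This length was chosen after the values were seen, and it carries no test.

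The level of the members, per kb of annotated exon, ranged from 0.210 to 164 normalized counts. Hist1h2ap was at 164 normalized counts per kb, Hist1h2ao at 98.0, Hist1h1c at 64.5, Hist1h2bg at 10.9, Hist1h2bc at 8.36, and Hist1h4i and Hist2h2be at 4.42 and 4.41. The other members lay between 0.210 and 1.59 per kb. The median per kb was 0.624 in the 22 members with long annotated ends and 0.575 in the 24 with short ones. These medians were alike, but the scale divides by a length that includes the annotated end. Without that division the medians were 1.23 and 0.293 normalized counts. Both groups held members far above their median. Counted per gene and not per length, 14 of the 22 and 2 of the 24, Hist1h2ap and Hist1h2ao, had a mean of at least 1 CPM. The 2 genes share 93.1% and 93.5% of their 50-base windows with other genes, mainly other H2A genes, so how reads were divided among these copies is uncertain. A microRNA gene is annotated on the opposite strand within each of them, and whether the counting used strand is not stated. Every other H2A member also overlaps an annotated gene, so an overlap is not particular to Hist1h2ap and Hist1h2ao.

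**Figure D1:**
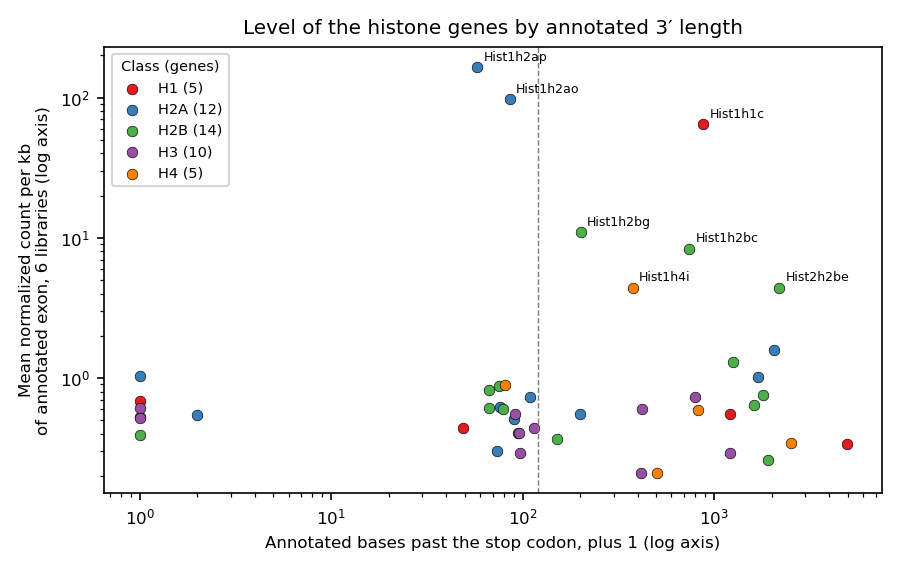
Each point is 1 of the 46 histone genes, with the annotated bases past the stop codon (plus 1, log axis) against the mean normalized count per kb of annotated exon over 6 libraries (log axis). Colours mark the class, and the dashed line marks 120 bases. Hist1h2ap and Hist1h2ao, with short annotated ends, sit highest at 164 and 98.0 per kb, and the next 5, from Hist1h1c at 64.5 to Hist2h2be at 4.41, all have longer ends.

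Beside the replacement variants, histones of which many are made throughout the cell cycle from polyadenylated mRNAs, most members were low per kb. H2az1 (the H2A.Z variant) was at 259 normalized counts per kb, H3f3b and H3f3a (both encoding H3.3) at 241 and 107, H1f0 (a linker histone of quiescent cells) at 160 and H2ax (the variant phosphorylated at DNA breaks) at 60.6. The remaining variants ran from 0.572 for Macroh2a2, as low as many members, to 47.0 for Macroh2a1. Variants other than H2az1, H3f3b and H3f3a are named here after their values were seen. All 10 H3 members lay between 0.212 and 0.728 per kb, below both H3.3 genes. Within H1, Hist1h1c stood between H1f10 (8.02) and H1f0, whereas the other 4 H1 members were at 0.341 to 0.691.

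The libraries stood apart in ways that bear on what follows. Normalized counts of Mcemp1 itself were 9.80, 7.68 and 16.9 in the wild-type libraries in order of replicate, and 0.201 and 0.0849 in replicates 4 and 5. The third library labelled Mcemp1-/-, replicate 6, had 4.23, below every wild-type library but well above replicates 4 and 5. Reads outside the small deletion are still counted, so this level is a weak check of the allele. The 8 neutrophil precursor markers summed to 7779 to 11676 in the wild-type libraries, to 462 and 349 in replicates 4 and 5, and to 10657 in replicate 6, and the 9 mast cell markers, all detected, to 22981 to 23825, to 43505 and 44723, and to 24026. Not every mast cell marker moved as the sum did. Of the 9, 5 were higher and 1 lower in Mcemp1-/- without overlap (14.8% and 14.7% of all genes tested). Replicate 6 was near the wild-type libraries on the neutrophil precursor and mast cell sums. On the basophil sum given below it was above them but nearer to them than to replicates 4 and 5, and on the eosinophil sum it was near replicates 4 and 5. Xist was at 1297 in wild-type replicate 3 and 1481 in replicate 6 and under 1 in the other 4 libraries. In wild-type replicate 2, the 213 genes of small nuclear and nucleolar RNAs summed to 35265 against 24.8 to 29.1 elsewhere. Library totals were 932999 to 989051, a normalized scale and not a depth, so counting error is unknown. The headers give sample suffixes that repeat (S4 on replicates 4 and 6, S5 on replicates 2 and 5), so they are not a single numbering, and libraries of 1 suffix may come from different runs, which would also divide the Mcemp1-/- group. Their meaning and the runs are not stated, so run cannot be told apart from the differences between libraries.

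Summed over all 46 members, the level was 267, 212 and 203 in wild-type replicates 1, 2 and 3 and 382, 360 and 287 in Mcemp1-/- replicates 4, 5 and 6. The means were 227 ± 34.7 and 343 ± 49.9 normalized counts (SD, n = 3 each), a ratio of 1.51, and the groups did not overlap. Hist1h1c, Hist1h2ap and Hist1h2ao made up 75.6% to 84.5% of the sum in every library. Without Hist1h1c the ratio was 1.18, and without the 2 H2A genes it was 2.31. In bulk RNA a difference in the share of cells that make a transcript and a difference in RNA per cell cannot be told apart.

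By class, the sums separated the groups in H1, H2B and H3 and overlapped in H2A and H4. The H1 sum was 81.8, 55.6 and 44.9 in the wild-type libraries and 182, 157 and 108 in Mcemp1-/- replicates 4, 5 and 6, a ratio of means of 2.45. It was mostly Hist1h1c, whose means of 57.9 and 143 made up most of the H1 means of 60.8 and 149. The H2B sum was 24.2, 20.4 and 18.6 against 61.1, 59.1 and 34.2, a ratio of 2.44. In both classes replicates 4 and 5 were highest and replicate 6 lay between them and the wild-type libraries. The H3 sum, over 10 genes that were each too low to test, was 2.84, 2.99 and 2.56 against 4.90, 4.57 and 4.03, a ratio of 1.61. The H4 sum was 4.74, 6.10 and 4.47 against 5.75, 5.80 and 5.78. The H2A sum, 153, 126 and 133 against 127, 134 and 135, was mostly Hist1h2ap and Hist1h2ao, and without them the other 10 H2A genes summed to 6.73, 5.43 and 6.28 against 10.7, 12.8 and 8.68. By cluster, the Hist2 sum was 8.62, 8.64 and 8.23 against 19.5, 19.2 and 13.2, and was mostly Hist2h2be.

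**Figure D2:**
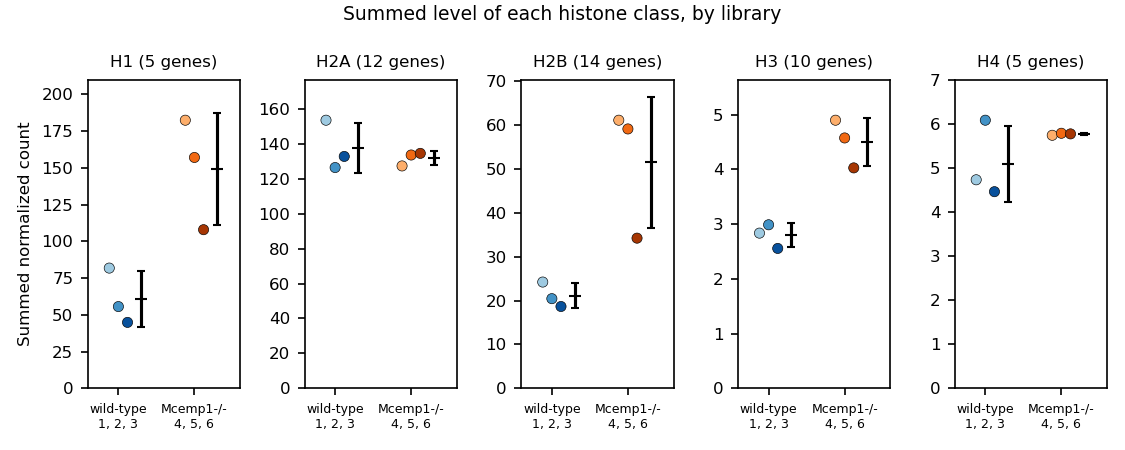
Points are the summed normalized counts of each histone class in the 3 wild-type and 3 Mcemp1-/- libraries, with the mean and SD (n = 3) beside them. The vertical scales differ between panels and start at 0. The groups separate in H1, H2B and H3, with replicate 6 the lowest Mcemp1-/- library in each, and overlap in H2A and H4.

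Of the 46 members, 16 had a mean of at least 1 CPM (0.957 normalized counts at the mean library total) and entered the test over 13513 genes, 3 of them H1, 4 H2A, 7 H2B, 0 H3 and 2 H4. With all 6 libraries, 0 of the 16 passed an adjusted p of 0.05 in limma, where 0.0148% of all genes tested were called higher and 0.0592% lower. At an unadjusted p under 0.05, 8 were higher and 0 lower, against 11.6% and 13.8% of all genes. The groups did not overlap in 9 members that were higher in Mcemp1-/- (14.8% of all genes tested) and in 1 that was lower (14.7%). Of the 16, 4 (Hist1h2br, Hist1h2bq, Hist1h2be and Hist4h4) had a wild-type mean under 1 CPM and entered only through the group in which they were higher, so these counts are a description. Of the 12 members with both group means at or above 1 CPM, 7 were higher without overlap (15.1% of the 12782 such genes) and 1 lower (14.2%). The median log2 fold change of these 12, on the log2(value + 0.479) scale that understates changes of low genes, was 1.01 against 0.00 over the same genes, and that of all 16 was 0.90.

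Linker histones gave one of the widest differences among well-measured members. Hist1h1c (chromosome 13, 23738808 to 23740367, 1 exon) was at 78.9, 52.8 and 41.9 normalized counts in the wild-type libraries and at 175, 152 and 103 in Mcemp1-/- replicates 4, 5 and 6. Every Mcemp1-/- library lay above every wild-type one, and replicate 6 was nearest to them. The means were 57.9 ± 19.0 and 143 ± 37.0 (SD, n = 3 each), and limma gave a log2 fold change of 1.32 (SE 0.29, adjusted p = 0.151).

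Hist1h1d, another linker histone, was at 1.33, 1.33 and 0.951 against 5.18, 3.44 and 2.95, again with no overlap, and its log2 fold change was 1.34 (adjusted p = 0.138 from limma). Hist1h1e was at 0.951, 1.01 and 1.33 against 1.13, 0.845 and 1.21. Its groups overlapped and the log2 fold change was -0.03 ± 0.22 (standard error), so within 1 class members with separated and with mixed groups stood side by side. Hist1h1e overlaps Hist1h2be on the same strand, so reads of these genes cannot be fully told apart. Hist1h1b, under the level for testing, was at 0.413, 0.322 and 0.342 against 0.603, 0.595 and 0.806, without overlap.

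Among the H2B genes, the groups separated in all 4 with both group means at or above 1 CPM, Hist2h2be, Hist1h2bc, Hist1h2bg and Hist1h2bh (15.1% of such genes over the whole table), and of the 3 that entered through their Mcemp1-/- values in Hist1h2br. Hist2h2be, the H2B gene of the Hist2 cluster (chromosome 3, 96221119 to 96223738), was at 7.64, 7.63 and 7.41 normalized counts in the wild-type libraries and at 17.1, 18.5 and 11.0 in replicates 4, 5 and 6. Its wild-type libraries were almost equal, and all 3 Mcemp1-/- libraries were above them. Limma gave a log2 fold change of 0.96 (SE 0.20, adjusted p = 0.151).

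Hist1h2bc was at 6.86, 4.50 and 4.66 against 17.4, 15.8 and 8.68, with a log2 fold change of 1.28 (adjusted p = 0.151 from limma). Hist1h2bg was at 4.46, 3.67 and 2.19 against 12.3, 12.3 and 5.57, with a log2 fold change of 1.39 (adjusted p = 0.154 from limma). Of the 50-base windows, 30.1% in Hist1h2bc and 49.7% in Hist1h2bg are shared with other genes, so part of their reads is uncertain. In both genes replicate 6 lay just above the highest wild-type library, and replicates 4 and 5 were well above replicate 6. Hist1h2bh was at 1.52, 0.975 and 0.973 against 3.37, 3.30 and 2.93, so here all 3 Mcemp1-/- libraries were close together, with a log2 fold change of 1.19 (adjusted p = 0.127 from limma, the lowest among the members).

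Hist1h2br had the largest fitted difference, 1.98 on the log2 scale (SE 0.46, adjusted p = 0.151 in limma), from 1.23, 0.0663 and 0.174 against 2.61, 3.36 and 2.66. Its wild-type libraries were widely spread, 2 of them near the lowest values of the table, and 88.7% of its 50-base windows are shared with other genes, so its value is uncertain. It was 2.93 with a pseudocount of 0.1 CPM and 1.02 with 2 CPM, where Hist1h1c, at 1.29, lay above it. Hist1h2bq, with 97.3% shared, was at 0.404, 0.898 and 1.001 against 2.84, 1.70 and 0.939, and Hist1h2be at 0.821, 1.24 and 0.632 against 1.75, 1.59 and 0.933. Both overlapped through replicate 6.

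The H2A members went in different ways. Hist1h2ac was at 2.84, 1.78 and 2.49 normalized counts against 5.43, 7.46 and 3.73, with no overlap and a log2 fold change of 1.05 (adjusted p = 0.154 from limma). Hist1h2ap was at 90.0, 79.3 and 85.1 against 63.5, 78.7 and 78.6, the only tested member with all Mcemp1-/- libraries lower, by a narrow margin, and its log2 fold change was -0.21 (adjusted p = 0.252 from limma). Hist1h2ao was at 56.7, 41.7 and 41.4 against 53.2, 42.0 and 47.2. The groups of Hist1h2ao overlapped, and the highest pair of members per kb were therefore not separated upward in Mcemp1-/- as Hist1h1c was. Hist3h2a, the only Hist3 member, was at 1.93, 2.23 and 2.55 against 1.86, 2.40 and 2.17, and also overlapped. Its locus is shared with Trim17 on the same strand, so its reads are uncertain.

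H4 and H3 members were low. Hist1h4i was at 2.93, 3.89 and 2.68 against 3.26, 3.18 and 3.35, with a log2 fold change of 0.05 ± 0.18 (standard error). Hist4h4, the only Hist4 member, was at 0.582, 0.950 and 0.975 against 1.02, 1.14 and 1.27, without overlap but with a log2 fold change of 0.31 (adjusted p = 0.378 from limma). The highest H3 gene, Hist1h3d, was at 0.633, 0.808 and 0.349 against 1.21, 1.53 and 0.928, and Hist1h3e at 0.557, 0.192 and 0.301 against 0.772, 0.809 and 0.397. Hist1h3d was therefore separated and Hist1h3e was not. Of the named members below the level for testing, Hist1h4d (0.359 to 1.04), Hist1h4n (0.199 to 0.516), Hist2h3c1 (0.115 to 1.04) and Hist1h3a (0.0516 to 0.527) overlapped between the groups. Among all 30 untested members, no library value exceeded 1.53, and 13 of the 46 members had a value exactly equal to the lowest of its library. Without the filter, 17 of the 46 members were higher without overlap (13.4% of all 17320 genes) and 2 lower (13.4%).

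**Figure D3:**
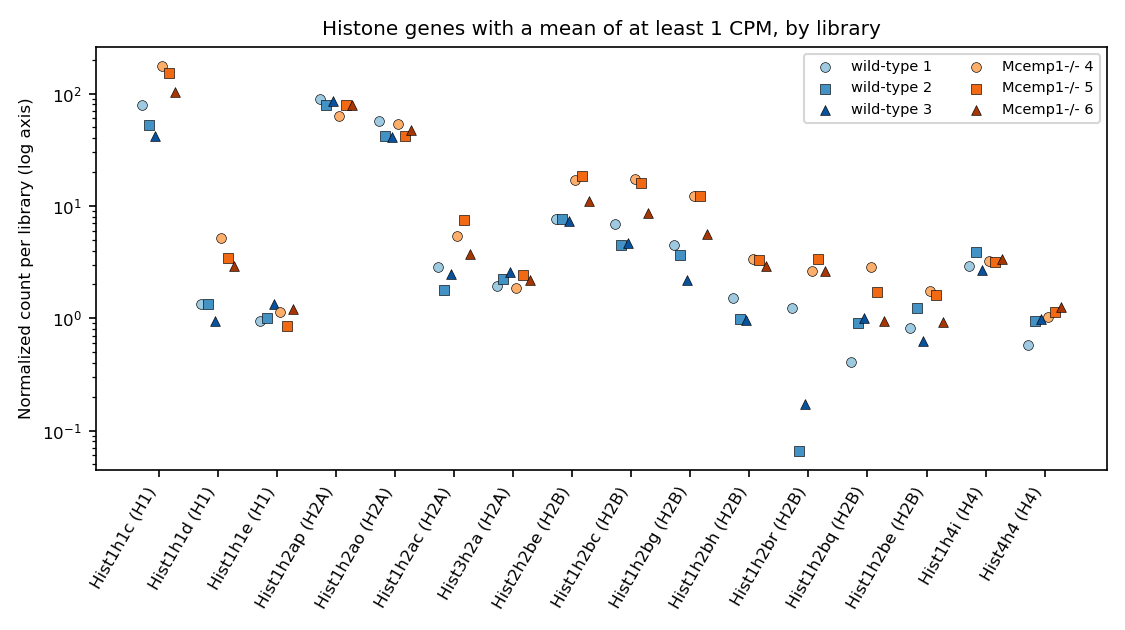
Normalized counts (log axis) of the 16 tested histone genes, ordered by class and mean, with 1 point per library. Blue points are the wild-type replicates 1, 2 and 3 and orange points are Mcemp1-/- replicates 4, 5 and 6. Orange points lie above blue ones in Hist1h1c, at 103 to 175 against 41.9 to 78.9, and in most H2B genes, and mix with them in Hist1h2ao, Hist3h2a and Hist1h4i.

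The calls depended on whether replicate 6 was included, in the members and over all genes. With it, 0.0148% of all genes tested were called higher and 0.0592% lower. In 7 of the 16 members replicate 6 lay above every wild-type library and below replicates 4 and 5, a pattern found in 11.4% of all genes tested. Without replicate 6, 9 of the 15 members still tested rose and 0 fell in limma, where 19.4% of genes were called higher and 22.4% lower. The 9 were Hist1h1c, Hist1h1d, Hist1h2ac, Hist2h2be, Hist1h2bc, Hist1h2bg, Hist1h2bh, Hist1h2br and Hist1h2bq, with adjusted p-values from 3.5e-04 for Hist2h2be to 0.0423 for Hist1h2bq. Hist1h2br and Hist1h2bq entered the test only through their Mcemp1-/- values, which leaves 7 that did not. The log2 fold changes of the 9 lay between 1.14 and 2.03, and those of the 7 between 1.18 and 1.75. Hist1h2br and Hist1h2bh were called although their log2 fold changes hardly moved, from 1.98 to 2.03 and from 1.19 to 1.24. When wild-type replicate 2 was also left out, Hist1h2be joined the 9 and 10 of 15 rose (16.6% of genes higher and 19.4% lower). The neutrophil precursor sum given above separates replicates 4 and 5 from the other 4 libraries, as does the macrophage sum (3.14 and 4.49 against 120 to 169). The mast cell sum sets replicates 4 and 5 well apart, with replicate 6 (24026) just above the wild-type range (22981 to 23825). The eosinophil sum, at 46.0 to 121 in wild-type libraries and 4.89, 5.73 and 7.23 in replicates 4, 5 and 6, separates all 3 Mcemp1-/- libraries. So does the basophil sum, at 448 to 487 and 893, 938 and 546, with replicate 6 nearer the wild-type libraries. Of the 3 basophil markers, 2 were higher and 1 lower without overlap (14.8% and 14.7% of all genes tested). The part of these cell types in the histone differences was not tested. The 43 members other than Hist1h1c, Hist1h2ap and Hist1h2ao summed to 41.5, 37.8 and 35.0 in the wild-type libraries and to 89.7, 87.7 and 58.0 in replicates 4, 5 and 6.

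**Figure D4:**
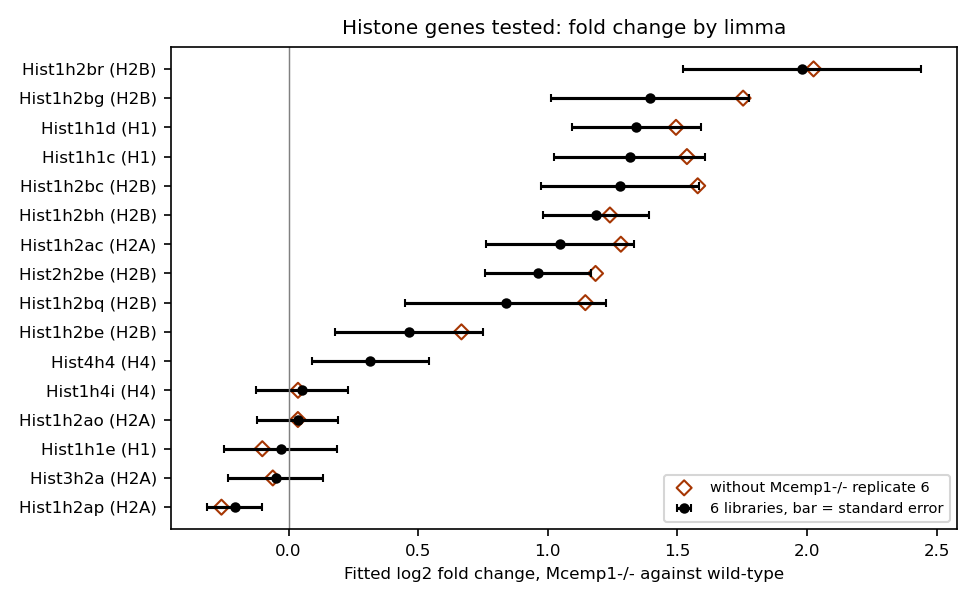
Fitted log2 fold changes of the 16 tested histone genes, Mcemp1-/- against wild-type. Black points are the fit to 6 libraries with standard errors, and open diamonds are the fit without Mcemp1-/- replicate 6, in which Hist4h4 was too low to test. The values run from -0.21 for Hist1h2ap to 1.98 for Hist1h2br, and the diamonds lie further from 0 in most of the H1 and H2B genes.

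Wild-type replicate 2 stood apart from the other libraries in RNAs made without a poly(A) tail. Of the 108 genes of a list of such RNAs in the table, mostly small nucleolar RNAs that guide modification of ribosomal RNA, 103 were at least 2-fold above each of the other 5 libraries there, against 2.69% of all 17320 genes. No filter was used for this count, because all but 1 of the 70 tested genes of the list reached 1 CPM only through replicate 2. Snord80, Snord12 and Snord33, the highest of them, were at 1739, 1093 and 839 normalized counts in replicate 2 and at the lowest value found in each other library. Of the 46 histone members, 0 met this rule, and of the 16 tested ones 0, against 1.55% of all genes tested. The difference of the 16 between replicate 2 and the median of the other libraries was, at the median, -0.34 on the log2 scale, with 4 of 16 above 0, against 0.00 over all genes tested. The other 5 libraries include all 3 labelled Mcemp1-/-. A member higher in Mcemp1-/- without overlap therefore comes out below 0 and cannot meet the 2-fold rule, wherever replicate 2 lies among the wild-type libraries. That held for 17 of the 46 members (13.4% of all 17320 genes) and 9 of the 16 tested ones (14.8% of all genes tested). Few members would meet the rule at the shares over all genes, so a count of 0 does not set the members apart. Neither the differences nor the count is a measure of replicate 2 alone.

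Single members differed in both directions. Hist1h2be (0.28), Hist1h4i (0.26) and Hist3h2a (0.03) were the highest in replicate 2, and Hist1h2br (-2.50), Hist1h2bh (-1.23) and Hist1h1c (-0.95) the lowest. Among wild-type libraries alone, Hist1h2bh was at 0.975 in replicate 2 and 0.973 in replicate 3. Hist1h1c, at 52.8 in replicate 2, lay between replicates 3 (41.9) and 1 (78.9). Hist1h2br, at 0.0663, was below replicates 1 (1.23) and 3 (0.174). Hist1h2ap and Hist1h2ao, whose annotated transcripts end at the stem-loop, were at 79.3 and 41.7 in replicate 2, within the range of the other libraries for both. Neither of them was raised in the library with the high small RNA values.

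**Figure D5:**
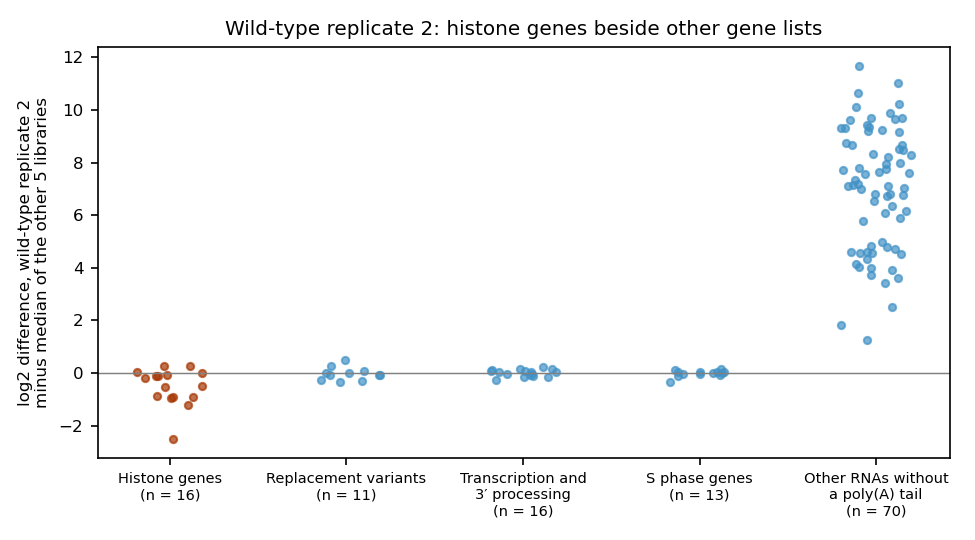
Each point is a tested gene, and the vertical axis is its log2 difference between wild-type replicate 2 and the median of the other 5 libraries. The 16 histone genes lie between -2.50 and 0.28, near or below 0 like the 3 lists of mostly polyadenylated genes, while the 70 other RNAs without a poly(A) tail, all but 1 of which reached 1 CPM only through replicate 2, lie between 1.26 and 11.7. The other 5 libraries include those of Mcemp1-/-, so genes higher in Mcemp1-/- without overlap fall below 0.

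The promoters of the members share motifs known from this family. RefSeq promoters (GRCm38.p6, 250 bases before to 50 after the start) were matched for 41 members. CCAAT, the box bound by NF-Y, was present on either strand in 38 of 41 (92.7%, against 37.4% of all 32851 promoters) and TATAAA in 21 (51.2% against 13.6%). The octamer ATTTGCAT, bound by the POU factor OCT1, was found in 5 of 11 H2A and 4 of 12 H2B promoters and in no H1, H3 or H4 promoter (1.74% of all). AAACACA, the H1 box, was found in 4 of 5 H1 promoters (7.18% of all). Neighbouring motifs can share end letters, as CCAAT and ATTTGCAT can, and a match is a description and not a binding site.

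The 250 bases before the RefSeq start are shown for Hist1h1c, the most abundant member whose groups separated, and for Hist1h2bg, an H2B gene whose groups also separated. Capitals mark the motifs on either strand.
Hist1h1c: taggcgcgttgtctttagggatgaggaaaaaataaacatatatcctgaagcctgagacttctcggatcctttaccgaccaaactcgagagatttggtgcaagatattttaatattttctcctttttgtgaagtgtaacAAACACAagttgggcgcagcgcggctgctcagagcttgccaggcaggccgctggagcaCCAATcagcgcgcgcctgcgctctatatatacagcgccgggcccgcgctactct
Hist1h2bg: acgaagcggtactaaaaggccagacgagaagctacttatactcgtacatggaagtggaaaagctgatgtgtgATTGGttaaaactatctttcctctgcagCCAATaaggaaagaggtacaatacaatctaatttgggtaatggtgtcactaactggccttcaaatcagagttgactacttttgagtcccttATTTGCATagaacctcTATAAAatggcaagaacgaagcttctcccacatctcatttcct
They lie at chr13:23738557-23738806 and chr13:23571150-23571399, both on the plus strand of GRCm38. The Hist1h1c window holds the H1 box and a CCAAT box, and the Hist1h2bg window holds CCAAT on both strands, the octamer and TATAAA.

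In 7 pairs an H2A and an H2B gene start head to head, 175 to 269 bases apart. Hist1h2bg was 19.8-fold above Hist1h2ae per kb, Hist2h2be 10.8-fold above Hist2h2ac and Hist1h2bc 5.24-fold above Hist1h2ac. In the Hist1h2bf and Hist1h2ad pair and the Hist1h2bj and Hist1h2ag pair the ratios were 1.72 and 1.33. The means of these genes were only 0.292 to 0.405 normalized counts, below the level for testing, so these ratios are uncertain. The order was the opposite for Hist1h2ap, 216-fold above Hist1h2br, and Hist1h2ao, 152-fold above Hist1h2bq. These genes share the most 50-base windows with other genes (88.7% to 97.3%). Sharing was a matter of degree, at 59.4% to 78.9% in the Hist1h2bf, Hist1h2ad, Hist1h2bj and Hist1h2ag genes.

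Genes that work with the histones were compared by lists. None of their members passed an adjusted p of 0.05 in limma with 6 libraries. Over all genes tested, 14.8% were higher and 14.7% lower without overlap, and 11.6% and 13.8% at an unadjusted p under 0.05. Of 11 replacement variants, 4 were higher and 2 lower without overlap (2 and 3 at an unadjusted p under 0.05), with a median log2 fold change of 0.11. H3f3b was at 668, 570 and 599 normalized counts against 872, 880 and 709, H2az1 at 400, 413 and 421 against 538, 555 and 431, and H3f3a at 364, 354 and 372 against 395, 388 and 375. The groups of these 3 genes did not overlap, and replicate 6 was the lowest Mcemp1-/- library in each. The 2 lower ones, named after their values were seen, were Macroh2a2, at 2.41, 1.64 and 1.86 against 0.213, 0.331 and 1.01, and H2ax, at 101, 87.3 and 84.7 against 77.9, 70.5 and 81.7. Macroh2a1, a variant of silent chromatin also chosen here after its values were seen, was at 492, 399 and 331 against 188, 175 and 334, overlapping only through replicate 6.

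Of 16 transcription and 3′ processing genes, 2 were higher and 2 lower without overlap (1 and 1 at an unadjusted p under 0.05), a share near that over all genes tested (14.8% and 14.7% without overlap), and the highest of them, Srrt, Cpsf2 and Sympk, had log2 fold changes of -0.09, 0.04 and -0.10. Slbp, chosen here for its role after its values were seen, was at 108, 108 and 121 against 118, 114 and 119. Of 8 decay genes, 2 were higher and 1 lower without overlap (1 and 1 at an unadjusted p under 0.05). Tut7, a uridylyltransferase of the decay pathway, was at 128, 127 and 143 against 180, 181 and 147, while its paralogue Tut4, chosen after its values were seen, was at 50.8, 53.4 and 57.6 against 38.0, 36.6 and 40.6 (log2 fold change -0.48, adjusted p = 0.111 from limma, the lowest in these 5 lists). Eri1, the exonuclease that trims the stem-loop, and Upf1, the helicase needed for decay, had log2 fold changes of -0.04 and -0.16. Of 15 chaperone genes, 2 were higher and 1 lower without overlap (2 and 1 at an unadjusted p under 0.05), and Nap1l1, Rbbp4 and Atrx, the highest, had log2 fold changes of -0.07, 0.01 and 0.02. The chaperone counts too were near or under the shares over all genes.

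The S phase genes, a reference for the share of cycling cells, had a median log2 fold change of -0.05. Their sum was 4311, 4329 and 4423 in the wild-type libraries and 4789, 4558 and 4679 in replicates 4, 5 and 6. The groups did not overlap, but without Mki67 and Top2a the other 11 genes summed to 2575, 2517 and 2460 against 2591, 2381 and 2443, which overlapped. Of the 13 genes, 2 were higher without overlap and 0 lower (2 and 0 at an unadjusted p under 0.05), close to the 14.8% higher over all genes. These were Mki67, the proliferation marker, at 993, 1043 and 1196 against 1334, 1335 and 1412, and Top2a, the topoisomerase that untangles DNA, at 743, 769 and 767 against 864, 842 and 824. Rrm1, a subunit of ribonucleotide reductase, was at 359, 366 and 347 against 384, 364 and 367, with overlapping groups.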

How the data were processed

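RNA was prepared with the KAPA mRNA HyperPrep kit and sequenced on a NextSeq instrument by the authors, who used Partek Flow. The submitters' notes name mm10. The authors deposited 1 table of normalized counts per gene, close to the CPM scale. The aligner, annotation, normalization method and handling of reads that match several genes are not stated. Whole reads could not be recovered (40.0% to 50.6% of low values lay within 0.01 of a multiple of the lowest value), so no count model was run.

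The test covered 13513 genes whose mean reached 1 CPM (0.957 at the mean total). It used limma 3.58.1 in R 4.3.3 (lmFit, eBayes with trend) on log2(value + 0.479), with Benjamini-Hochberg adjustment over those genes, and was tested on simulated data. For 1 gene alone, the smallest exact permutation p that 3 against 3 libraries allow is 0.1. Names, exons and stem-loops came from GENCODE vM21 and promoters from RefSeq. Members, lists, tests and the rule for named genes (called members, the 4 highest of each class, the 3 largest differences in each direction and for replicate 2, all Hist3 and Hist4 genes, and 3 genes per list) were chosen with earlier results of these data known. Alternatives were the pseudocount, the filter, TMM factors, rescaling without small RNA genes, eBayes without the trend and leaving libraries out. Figures were drawn with matplotlib 3.10.9.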

Additional observations from a re-analysis of the deposited data

How the results depend on the processing

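The call of 0 members higher and 0 lower held with a pseudocount of 0.1 or 2 CPM, no filter, a filter at 5 CPM, TMM factors, rescaling without small RNA genes and eBayes without the trend. With each library left out it ranged from 0 to 9 higher, the 9 without Mcemp1-/- replicate 6, and it was 10 without wild-type replicate 2 and Mcemp1-/- replicate 6 together. Members higher without overlap, alternatives chosen after seeing the data, numbered 17 with no filter and 4 with a mean of at least 5 CPM, where fewer or more members were counted, and 9 to 11 with each library left out. They numbered 9 with TMM factors, 8 with rescaling without small RNA genes and 8 without 4 members of shared sequence. The ratio of summed levels was 1.18 without the member of the highest mean, Hist1h1c, and 1.42 to 1.65 with each library left out (chosen after seeing the data). With rescaling without small RNA genes the ratio was 1.44. The count of members raised in wild-type replicate 2 was 0 under all 5 of its alternatives. Of the single genes, only those near 0 reversed, and the cause was not tested. With rescaling Hist1h4i was at -0.0019 and Hist1h2ao at -0.027, and without wild-type replicate 2 and Mcemp1-/- replicate 6 together Hist1h2ao was at -0.036. With libraries left out, Hist1h2ao ranged from -0.049 to 0.18, Hist1h4i from -0.045 to 0.19, Hist1h1e from -0.14 to 0.075 and Hist3h2a from -0.13 to 0.032.

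No paired analysis was possible because the groups share no replicate number. The depth of the libraries is unknown, so for members under 1 CPM the values and sums are a description with no test, and the capture of poly(A) tails limits every level to the RNA captured.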
